A study of Mus musculus with 4 samples.

Results

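The genes of the cytoplasmic translation initiation and elongation factors were described in mouse T-helper 2 (Th2) cells. They were chosen by name and place: protein-coding autosomal genes whose symbol starts with Eif or Eef, 65 of the 50600 genes in the count files and of the 20620 that are protein-coding and autosomal. The rule uses no measured value, but it was set with earlier results of these data known. All 4 libraries came from primary Th2 cells of mouse strain C57BL/6NJ. Th2 cells are CD4 T cells defined by their type of cytokines, among them interleukin 4. The headers of the count files name a 72 h time and a sort. The labels name no treatment, genotype or control group. They give the sex as not collected and the age as unknown, and they call the libraries biological replicates 1 to 4 without saying whether these were separate animals, so the spread reported here may be partly technical. Genes are therefore compared with each other in the same library, and the 4 libraries among themselves.

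Initiation factors bring the initiator tRNA and the small ribosomal subunit to an mRNA. eIF2 carries the initiator tRNA, eIF3 and the small factors eIF1, eIF1A and eIF5 assemble on the subunit and read the start codon, and eIF4F (the cap binder eIF4E, the scaffold eIF4G and the helicase eIF4A) recruits the capped mRNA. Elongation factors then deliver each aminoacyl-tRNA (eEF1A, recharged by eEF1B) and move the ribosome along (eEF2). T cells are known to raise protein synthesis when they are activated, and the eIF2 kinases and the eIF4E-binding proteins are the best known brakes on initiation.

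The deposited values are fragment counts per gene with the strand option of the counter set to 1, so each gene has counts from 1 strand only, called own-strand counts here. They are not taken as a measure of the mRNA. A gene whose exon lies opposite an exon of another gene can differ from one that has no such neighbour. The labels also do not say which strand the library reads, and whether the strand option matches it was not tested. Of the 65 genes, 18 (27.7%) had at least 1 base of exon opposite an exon of a gene on the other strand, compared with 22.9% of all protein-coding autosomal genes, and 47 had none. The 18 genes formed 21 pairs with their opposite-strand genes. In Eif3d, a subunit of eIF3 that can itself bind the cap, and in Eif2ak3, which encodes the endoplasmic reticulum stress kinase PERK, the shared exons are coding exons. The same holds for Eef2k, which encodes the kinase of eEF2. In Eif2ak1, which encodes the heme-regulated eIF2 kinase, the 172 bases opposite Ankrd61 are coding and the 487 bases opposite Aimp2 are not. In Eefsec, the factor that delivers selenocysteine tRNA, the shared exon holds the start codon and was shared over 274 coding bases.

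The sequences are shown because own-strand counts of both genes of a pair can only be told apart by strand over these bases. They were read from GENCODE M21 transcripts and are written along the translation factor mRNA, with the bases shared with the opposite exon in capitals and up to 15 bases of the neighbouring coding exons in lower case. Positions are of the capitals on mm10.
Eif3d, opposite Gm17638, chr15:77964020-77964152, minus strand: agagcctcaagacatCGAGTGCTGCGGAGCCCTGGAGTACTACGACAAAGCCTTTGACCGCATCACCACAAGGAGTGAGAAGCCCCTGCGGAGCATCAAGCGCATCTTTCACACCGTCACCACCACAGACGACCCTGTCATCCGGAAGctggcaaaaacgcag
Eif3d, opposite Gm17638, chr15:77963178-77963325, minus strand: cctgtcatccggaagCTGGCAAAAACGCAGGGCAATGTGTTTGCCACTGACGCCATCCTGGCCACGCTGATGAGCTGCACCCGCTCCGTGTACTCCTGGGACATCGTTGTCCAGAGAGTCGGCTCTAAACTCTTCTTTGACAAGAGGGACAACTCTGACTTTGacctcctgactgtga
Eif2ak3, opposite Gm43292, chr6:70883595-70883735, plus strand: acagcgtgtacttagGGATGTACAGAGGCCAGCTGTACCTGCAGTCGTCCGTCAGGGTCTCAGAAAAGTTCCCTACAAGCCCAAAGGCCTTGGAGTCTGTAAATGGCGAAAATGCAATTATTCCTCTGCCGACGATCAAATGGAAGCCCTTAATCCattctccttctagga
Eef2k, opposite Gm15774, chr7:120873309-120873409, plus strand: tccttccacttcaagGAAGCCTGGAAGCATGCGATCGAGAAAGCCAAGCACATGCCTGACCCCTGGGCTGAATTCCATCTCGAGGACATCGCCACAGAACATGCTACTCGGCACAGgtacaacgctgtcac
Eefsec, opposite Gm44264, chr6:88446206-88446479, minus strand: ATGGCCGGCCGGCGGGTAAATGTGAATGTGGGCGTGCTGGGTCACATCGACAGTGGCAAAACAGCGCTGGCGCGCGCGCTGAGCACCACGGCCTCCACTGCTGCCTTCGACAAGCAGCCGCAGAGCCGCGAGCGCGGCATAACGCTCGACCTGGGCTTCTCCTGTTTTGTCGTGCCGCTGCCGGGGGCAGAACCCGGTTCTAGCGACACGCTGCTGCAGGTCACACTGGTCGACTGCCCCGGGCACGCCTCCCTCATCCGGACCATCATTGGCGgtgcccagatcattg
Eif2ak1, opposite Ankrd61, chr5:143897475-143897557, plus strand: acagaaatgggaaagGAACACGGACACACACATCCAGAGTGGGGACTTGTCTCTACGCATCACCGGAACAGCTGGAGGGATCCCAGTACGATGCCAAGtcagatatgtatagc
The capitals had a GC content of 58.6% and 54.7% in the Eif3d exons, 50.4% in Eif2ak3, 56.4% in Eef2k, 66.4% in Eefsec and 56.6% in Eif2ak1.

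The libraries held between 1274431 and 1857433 counts, so that 3 counts, the limit that a count of 0 allows, correspond to 1.62 to 2.35 counts in 1000000 (CPM). This limit and the intervals of shares cover counting error only. All 7 T cell markers and all 7 Th2 markers had counts, between 502 and 1108 and between 271 and 668 summed over the list in a library. Of these, 2 T cell and 4 Th2 markers have an opposite exon. A single T cell marker of this kind gave 533, 577, 389 and 338 counts in replicates 1 to 4. The T cell sums were 1108, 827, 502 and 937. Of 5 B cell markers, 3 had any count, Ms4a1 was at 0 and the summed count was 3 to 56. Cd79a, which has no opposite exon, had 35, 41, 9 and 2 counts in replicates 1 to 4. Cd22, which has an opposite exon, had 14, 15, 12 and 1. Of 5 myeloid markers, Lyz2, Itgam and Adgre1 were at 0, and Csf1r, which has an opposite exon, gave 542 to 827 of the summed 542 to 838 counts. The fifth, Cd68, which has no opposite exon, had 16, 11, 33 and 0 counts in replicates 1 to 4. Of the red cell markers, Hbb-bs and Hba-a1 were at 0, and Alas2, which has an opposite exon too, had 11 to 32 counts.

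Own-strand counts were found for 62 of the 65 genes, and for 54 of them in every library. The mean count reached 10 in 51, of which 37 had no opposite exon and 14 had one. The genes took 0.894% of the counts in replicate 1 (Wilson 95% interval 0.880 to 0.908), 0.458% in replicate 2 (0.449 to 0.468), 0.466% in replicate 3 (0.455 to 0.477) and 1.10% in replicate 4 (1.08 to 1.12). Replicates 1 and 4 were thus high and replicates 2 and 3 low. Whether this difference lies in the cells or in the counting by strand was not tested. In bulk samples, fewer cells of a type and less RNA per cell cannot be told apart either. Genes without an opposite exon carried this difference, with 0.591%, 0.198%, 0.194% and 0.750% in replicates 1 to 4, while genes with one took 0.303%, 0.261%, 0.272% and 0.347%.

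**Figure D1:**
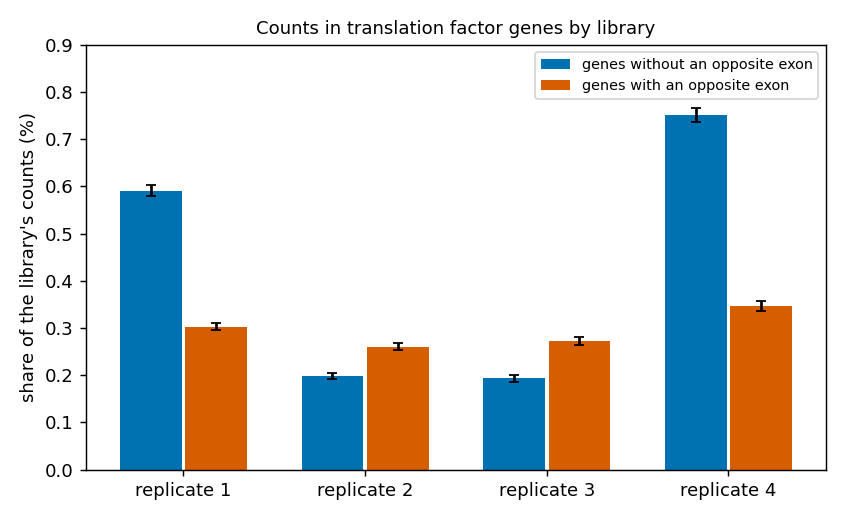
Share of each library's counts (vertical axis, percent) in the 47 translation factor genes without and the 18 with an exon opposite another gene's exon. Bars are single libraries and error bars are Wilson 95% intervals: the genes without an opposite exon held 0.750% in replicate 4 and 0.194% in replicate 3, the genes with one 0.261% to 0.347%.

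The same 4 libraries differed in this way over all genes without an opposite exon, which took 16.4%, 8.54%, 9.14% and 20.1% of the counts. Taken within the counts of those genes, the translation factors held 3.60%, 2.32%, 2.12% and 3.73%. The order of replicates 1 and 4 above 2 and 3 remained on this base. The Wilson 95% intervals of the high libraries (3.53 to 3.67 and 3.65 to 3.80) lay above those of the low ones (2.24 to 2.39 and 2.04 to 2.20). These intervals cover counting error only, and the libraries were called high and low from the same counts. They are therefore no test of the order.

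Levels were compared between genes as TPM, transcript shares scaled to 1000000 per library, computed from own-strand counts and exon length. The median of the 65 mean TPM values was 15.1, and the median over the genes in single libraries was 19.3, 5.53, 5.82 and 24.0. Over all protein-coding autosomal genes the median of the means was 0.304 TPM. Genes without an opposite exon had medians of 17.8, 5.06, 5.67 and 18.2 TPM and genes with one 27.8, 13.03, 14.8 and 59.1 TPM. Among all protein-coding autosomal genes, the median of the means was 0.0339 TPM without an opposite exon and 2.56 TPM with one. A higher level with an opposite exon was thus not particular to the translation factors. All values that follow as mean ± SD are over n = 4 libraries.

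**Figure D2:**
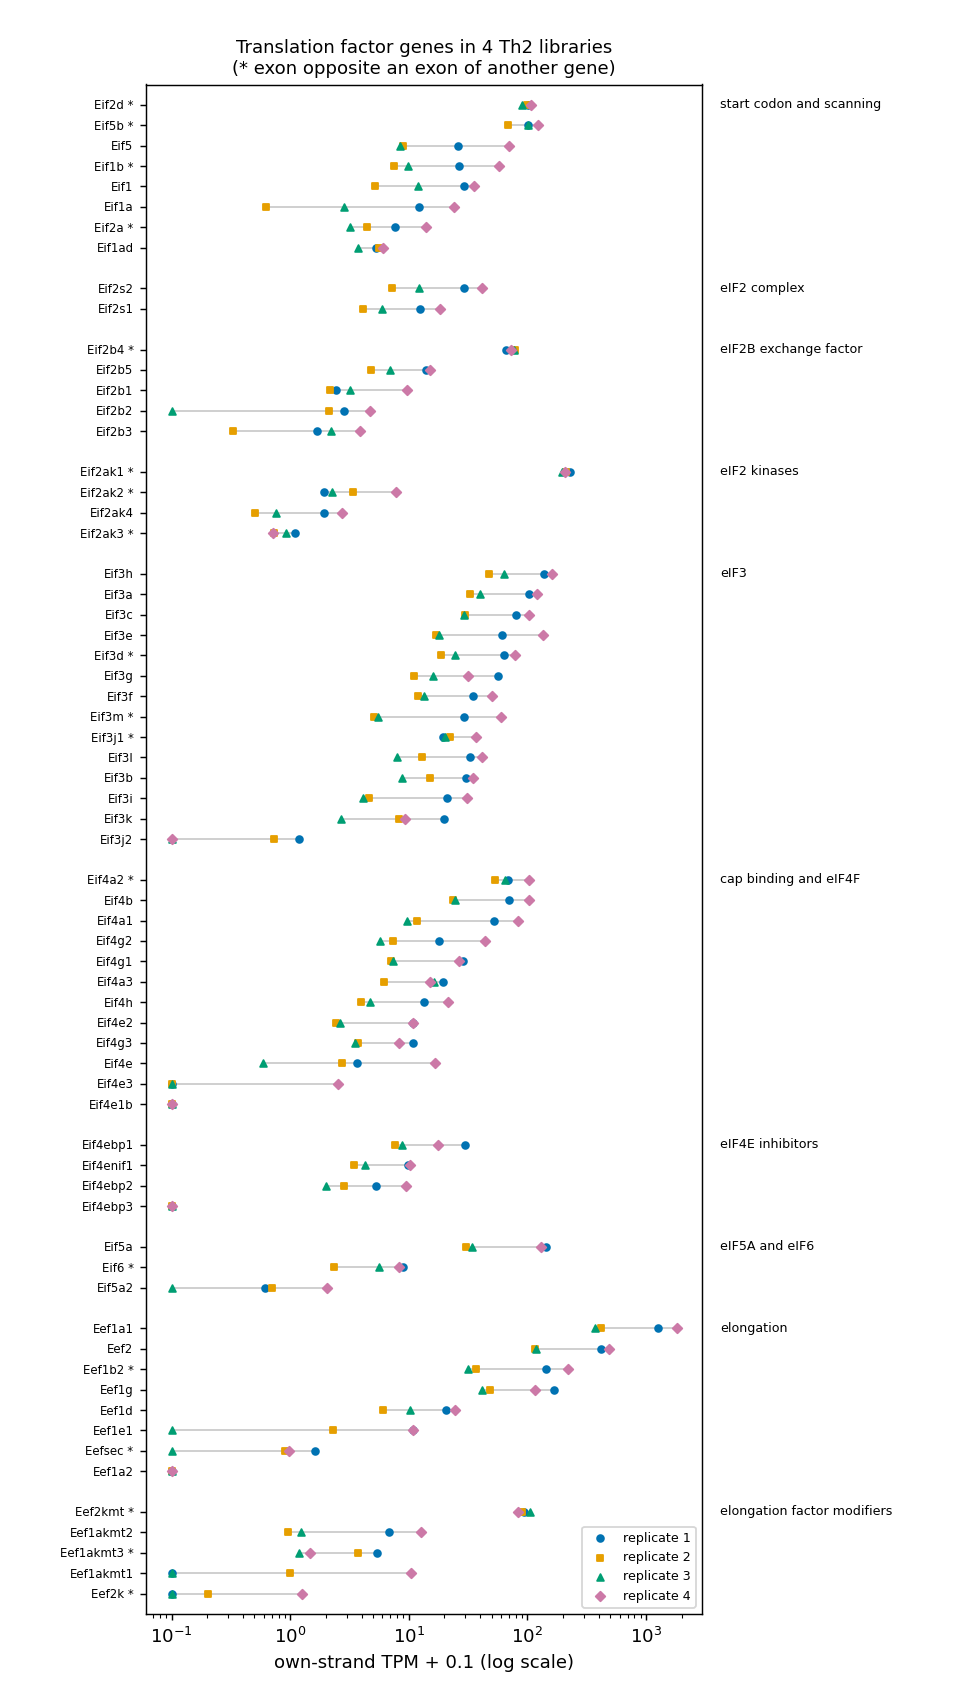
Own-strand TPM + 0.1 (horizontal log axis) of each of the 65 genes in each library, grouped by role and ordered by mean within a role, with an asterisk where an exon lies opposite another gene's exon. Most genes show replicates 1 and 4 to the right of 2 and 3, whereas Eif2ak1, Eif2d, Eif2b4 and Eef2kmt have all 4 libraries close together.

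Elongation factors had the highest own-strand levels. Eef1a1, the main aminoacyl-tRNA carrier, had 1262, 419.8, 373 and 1817 TPM in replicates 1 to 4 (968 ± 698) and alone made up 23.1%, 16.2%, 13.9% and 26.3% of the counts of the 65 genes. Eef2, the translocase, followed with 421, 116, 118 and 485 TPM (285 ± 196). Both were high in replicates 1 and 4 and low in 2 and 3, with a gap between these libraries. Among the exchange factor subunits, Eef1b2 had 108 ± 90.2 TPM (70.8 without replicate 4), Eef1g 93.3 ± 59.6 and Eef1d 15.3 ± 8.77. The neuronal and muscle form Eef1a2 had 0 counts in every library, so no ratio to Eef1a1 is given. Eefsec had 5, 3, 0 and 2 counts. Eef1a1 is a gene with many processed copies in the genome, and fragments that align in several places were not asked to be counted by the options in the file headers, so its level is uncertain.

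Of the 5 genes that modify elongation factors, Eef2kmt, a lysine methyltransferase of eEF2, stood at 93.2, 90.7, 105 and 83.8 TPM (93.2 ± 8.81). Its 4 libraries lay close together. The other genes in the role had few counts: Eef1akmt2 had 14, 2, 2 and 18 counts, Eef1akmt3 17, 13, 3 and 3, and Eef2k 0, 1, 0 and 7. Eef1akmt1 had the same 0, 1, 0 and 7 counts.

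In the group that selects the start codon, Eif2d, a factor that can deliver tRNA without eIF2, and Eif5b, which joins the ribosomal subunits, were highest. Eif2d had 102, 99.7, 90.2 and 108 TPM (100.03 ± 7.46) and Eif5b 101, 68.5, 102 and 123 TPM (98.3 ± 22.4). For Eif2d the libraries differed little, and for Eif5b replicate 2 was lowest. Eif5, which triggers GTP hydrolysis by eIF2, had 25.9, 8.77, 8.31 and 70.5 TPM (14.3 on average without replicate 4). The start codon factor Eif1 and its close copy Eif1b had 20.4 ± 14.3 and 25.5 ± 23.4 TPM (14.6 for Eif1b without replicate 4). Eif1a, the autosomal copy of an X-linked gene, had 41, 2, 8 and 56 counts, and its mean of 9.86 ± 10.7 TPM was 5.15 without replicate 4. Eif2a was at 7.22 ± 4.84 TPM. The lowest of the role was Eif1ad, with 15, 18, 9 and 12 counts (5.08 ± 1.03 TPM).

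The eIF2 subunits Eif2s2 (beta) and Eif2s1 (alpha, the target of the eIF2 kinases) had 29.1, 7.18, 12.05 and 41.3 TPM and 12.4, 3.98, 5.82 and 18.2 TPM. In both, replicates 1 and 4 were above 2 and 3. The guanine nucleotide exchange factor eIF2B has subunits of unequal own-strand level. Eif2b4 had 65.8, 79.0, 77.2 and 72.6 TPM (73.6 ± 5.91), Eif2b5, the catalytic subunit, 10.1 ± 5.09, Eif2b1 4.25 ± 3.56 (2.48 without replicate 4), Eif2b2 2.33 ± 1.89 and Eif2b3 1.93 ± 1.47 TPM. Eif2b4 is the 1 subunit of the 5 with an opposite exon.

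The 4 eIF2 kinases, which phosphorylate the same subunit, had unequal own-strand levels. Eif2ak1 had 227, 209.98, 196 and 209 TPM (211 ± 12.9), the third highest own-strand level of the 65 genes. It lies opposite Ankrd61 and Aimp2, and the part of these neighbours in its counts was not tested. The interferon-induced Eif2ak2 (PKR) had 3.74 ± 2.72 TPM (2.41 without replicate 4), the amino acid sensor Eif2ak4 (GCN2) 1.39 ± 1.04 and Eif2ak3 0.765 ± 0.179 TPM, from 7, 5, 5 and 3 counts. Eif2ak1 was above the other 3 kinases in every library. All but Eif2ak4 had opposite exons.

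Of the 14 eIF3 genes, 13 had a mean count of at least 10. Eif3h was highest, at 138, 47.8, 63.4 and 160.4 TPM (102 ± 55.2), followed by Eif3a, the largest scaffold subunit, at 103, 32.5, 39.5 and 119 TPM (73.7 ± 44.1). Eif3c had 79.8, 29.6, 28.8 and 103 TPM. In these 3 genes the lower of replicates 1 and 4 was above the higher of 2 and 3. Eif3e (57.9 ± 55.6, 32.1 without replicate 4), Eif3d (46.3 ± 29.4), Eif3g (28.8 ± 20.4), Eif3f (27.4 ± 18.2), Eif3m (24.8 ± 26.0, 13.1 without replicate 4), Eif3l (23.6 ± 15.8), Eif3b (22.1 ± 12.4) and Eif3i (15.1 ± 13.2, 9.84 without replicate 4) followed in TPM. Eif3k had 9.88 ± 7.12 TPM and its lowest value, 2.58, in replicate 3. Eif3j1 had 19.4, 22.4, 19.9 and 36.8 TPM, and its near-identical intronless copy Eif3j2 had 3, 2, 0 and 0 counts, so that the split of fragments between these copies is uncertain.

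Among the cap-binding and eIF4F genes, the helicase Eif4a2 was highest at 68.2, 52.8, 65.1 and 103 TPM (72.3 ± 21.6). The helicase cofactor Eif4b had 69.6, 23.4, 24.5 and 103 TPM. Eif4a1, the other form of the helicase, had 52.6, 11.5, 9.62 and 82.5 TPM (39.1 ± 35.1, 24.6 without replicate 4). The scaffolds Eif4g2 and Eif4g1 were at 18.7 ± 17.7 (10.3 without replicate 4) and 17.3 ± 11.8 TPM, and Eif4h, another helicase cofactor, was at 10.8 ± 8.23 TPM. The cap binder Eif4e had 25, 21, 3 and 81 counts (5.83 ± 7.31 TPM, 2.23 without replicate 4). Eif4e3 had counts in replicate 4 alone and Eif4e1b, an oocyte form, had 0 in every library. Of the eIF4E inhibitors, Eif4ebp1 had 15.9 ± 10.4, Eif4enif1 6.85 ± 3.58 and Eif4ebp2 4.80 ± 3.36 TPM. Eif4ebp3 had 0 counts, and 67.3% of its exon length is shared with Ankhd1 on the same strand. In the last role, Eif5a, the hypusine-bearing factor that relieves stalled ribosomes, had 145, 30.3, 33.8 and 131 TPM (85.0 ± 61.4), Eif6, which keeps the subunits apart, had 6.21 ± 3.01 TPM and Eif5a2 0.769 ± 0.839 TPM (0.371 without replicate 4).

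Related copies were set against each other within each library as the log2 ratio of TPM + 1, for 9 pairs. Eif4a1 was below Eif4a2 in 4 of 4 libraries, with differences of -0.37, -2.10, -2.64 and -0.32 on the log2 scale (-1.36 ± 1.19, exact two-sided sign-flip permutation p = 0.13, Benjamini-Hochberg adjusted 0.188). The gap was wide in replicates 2 and 3 and small in 1 and 4. Eif4g1 was above Eif4g3 (1.15 ± 0.37), Eif5a above Eif5a2 (5.37 ± 0.96), Eif4ebp1 above Eif4ebp2 (1.52 ± 0.65) and Eif3j1 above Eif3j2 (4.19 ± 0.83), each in 4 of 4 libraries and with the same exact p of 0.13, the smallest that 4 libraries allow. This design cannot reach 0.05. Eif4a1 was above Eif4a3, an exon junction protein, in 3 of 4 libraries (0.97 ± 1.29, exact p = 0.25). Eif4e against Eif4e2 (-0.47 ± 0.97) and Eif1 against Eif1b (-0.20 ± 0.47) were split 2 to 2 (exact p = 0.5 for both). Of these genes, Eif4a2, Eif1b and Eif3j1 have opposite exons, so their ratios compare own-strand counts of unlike neighbourhoods.

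The opposite-strand genes were then compared with the translation factors by counts per kb of exon within each library. All 21 pairs had at least 20 counts in sum. The opposite gene was denser in 4 of 4 libraries in 6 pairs, while this held for 55.2% of the 4199 such pairs of all protein-coding autosomal genes. The translation factor was denser in 4 of 4 libraries in 10 pairs, against 28.2% of the 4199 pairs. In the other 5 pairs the libraries were split.

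The pair with the most counts was Eif3d (chr15:77958998-77970824, minus strand, mm10) and the antisense gene Gm17638, which lies within it and shares 625 of its 4343 exon bases with Eif3d. Gm17638 had 8407, 10685, 7973 and 6072 counts, and Eif3d had 142, 47, 47 and 122. Gm17638 was thus far above Eif3d in each library. Eif3d took its lowest share of the counts in replicates 2 and 3. This low was not particular to Eif3d. The summed share of all genes without an opposite exon was also lowest there, at 16.4%, 8.54%, 9.14% and 20.1% in replicates 1 to 4. Gm17638 took its highest share in replicates 2 and 3, with 0.472%, 0.575%, 0.551% and 0.476% in replicates 1 to 4. A link between the counts of Eif3d and Gm17638 was not tested. Per kb of exon the means were 1907 counts for Gm17638 and 46.9 for Eif3d, a log2 ratio of 5.47 ± 1.07 (exact two-sided sign-flip permutation p = 0.13, adjusted over the 21 pairs 0.164). The highest to lowest library differed 1.22-fold in CPM for Gm17638 and 3.78-fold for Eif3d. All 625 shared bases are coding in Eif3d, and they make up 14.4% of the exon length of Gm17638, so where along Gm17638 its counts fell was not measured in these files. In replicates 2 and 3 this single gene held more counts than the 47 translation factor genes without an opposite exon did together (3676 and 2800). In replicates 1 and 4 it held fewer than they did (10521 and 9562).

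In 5 further pairs the opposite gene was denser in every library. Gm44264 had 138, 202, 138 and 111 counts opposite Eefsec (log2 ratio 6.78 ± 0.65). Gm43292, a transcript that still awaits experimental support in the annotation, had 184, 276, 212 and 122 counts opposite Eif2ak3 (5.44 ± 0.41), and all 485 shared bases are coding in Eif2ak3. Gm15774 had 37, 70, 107 and 64 counts opposite Eef2k (4.66 ± 0.76). In these 3 pairs the factor had 0 to 7 counts in each library and the opposite gene never fewer than 37. Eif2ak2 lay opposite a pair of noncoding genes, Gm26637 (84, 116, 113 and 70 counts, log2 ratio 3.25 ± 0.81) and n-R5s29, a ribosomal RNA gene of 119 bp with 14, 5, 12 and 4 counts (3.88 ± 1.47). By counts rather than counts per kb, n-R5s29 was below Eif2ak2 on average (log2 ratio -1.06), and it is a member of a multicopy family, so its counts are uncertain. Each of these 5 had the exact permutation p of 0.13 (adjusted 0.164).

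In 10 pairs the translation factor was the denser gene throughout. Eif2ak1 had 1508, 1571, 1118 and 962 counts. Ankrd61, whose exons lie opposite 172 coding bases of Eif2ak1, had 450, 517, 382 and 337 counts, a log2 ratio per kb of -0.32 ± 0.10, and Aimp2, which meets Eif2ak1 at its 3' end over 487 bases, had 62, 43, 47 and 53 (-2.82 ± 0.41). The ratio to Ankrd61 was small and its spread was smaller still. Eif2b4 against Snx17 (-0.74 ± 0.44), Eif2d against Rassf5 (-2.83 ± 0.73), Eef2kmt against Gm15983 (-2.97 ± 0.23), Eif3j1 against Spg11 (-1.06 ± 0.52), Eif4a2 against Rfc4 (-2.87 ± 0.46), Eif5b against Rev1 (-3.54 ± 0.94), Eif1b against D830035M03Rik (-2.47 ± 1.16) and Eef1b2 against Ndufs1 (-4.84 ± 0.63) made up the rest, each with an exact permutation p of 0.13 (adjusted 0.164). The shared exon ranged from 9 bases in Eef1b2 to 1643 in Eif5b.

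In the split pairs no gene was denser throughout. Eef2kmt had 289, 317, 280 and 180 counts and Alg1, which meets it at the 3' end over 472 bases, had 241, 298, 308 and 191. Their log2 ratio per kb was -0.05 ± 0.18 (exact two-sided sign-flip permutation p = 0.75), with Alg1 denser in 2 libraries and Eef2kmt in 2, and it was 0.026 without replicate 1. Ccdc73, which contains Eif3m, was denser in 3 of 4 libraries (1.72 ± 1.64, exact p = 0.25). Its counts of 284, 303, 208 and 183 varied less than those of Eif3m, which were 88, 17, 14 and 126. Serp1 opposite Eif2a (-0.38 ± 0.53), Mettl1 opposite Eef1akmt3 (-0.69 ± 1.01) and Gm16098 opposite Eif6 (-2.07 ± 1.99) were each denser than the factor in 1 library, and Mettl1 and Gm16098 had at most 10 counts in any.

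**Figure D3:**
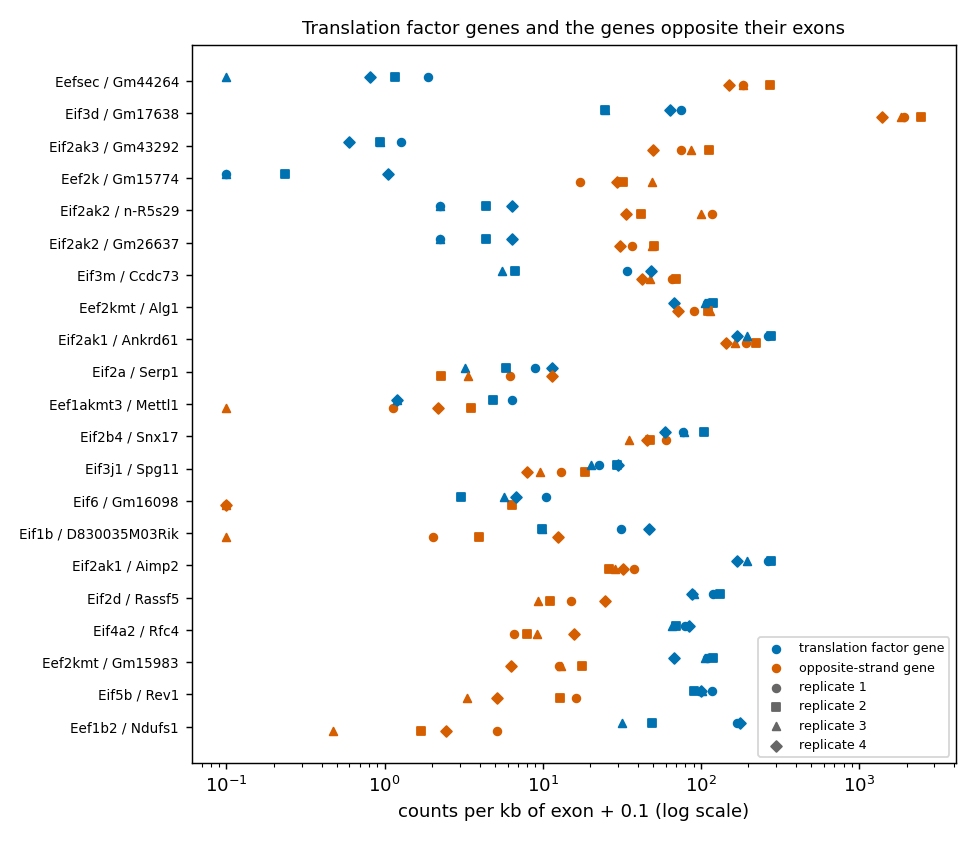
Counts per kb of exon + 0.1 (horizontal log axis) of each translation factor gene and the gene opposite its exons, for 21 pairs ordered by mean log2 ratio, with 1 symbol per library. The 6 pairs at the top have every opposite-strand value to the right of the factor's value in the same library, and Gm17638 reaches a mean of 1907 counts per kb.

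The libraries were next compared gene by gene. Over the 51 genes whose counts averaged 10 or more, replicate 4 was the highest by CPM in 35 (43.3% of all 7752 such genes), replicate 1 in 12 (23.4%), replicate 2 in 3 (14.4%) and replicate 3 in 1 (18.9%). The lowest library was replicate 2 in 28 (30.1%), replicate 3 in 18 (32.8%), replicate 1 in 3 (15.2%) and replicate 4 in 2 (21.9%). Among the 37 genes without an opposite exon, replicate 4 was highest in 26 (58.7% of 3827 genes without one), replicate 1 in 10 (27.3%), replicate 2 in 1 (4.7%) and replicate 3 in 0 (9.35%), and the lowest was replicate 2 in 22 (40.2%) or replicate 3 in 15 (42.9%) and never replicate 1 (7.5%) or 4 (9.49%). The median log2 CPM of these 37 genes deviated from each gene's mean by 0.61, -0.88, -0.78 and 0.98 in replicates 1 to 4. Scaling by TMM, edgeR's trimmed mean of M-values, which shifts the libraries by 0.13, -0.24, -0.13 and 0.25 on the log2 scale, left 0.49, -0.64, -0.65 and 0.73. All protein-coding autosomal genes without an opposite exon had 0.58, -0.66, -0.68 and 0.95 before this scaling and 0.46, -0.42, -0.55 and 0.70 after it. The direction was thus shared by these genes, and the translation factors were slightly farther from their means, a difference for which no test was run.

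By role, the medians in replicates 1 to 4 were 0.83, -0.91, -0.91 and 0.99 for the 5 elongation genes that passed the count minimum, 0.66, -0.86, -0.78 and 0.91 for the 13 eIF3 genes, and 0.59, -0.89, -0.85 and 1.03 for the 10 cap-binding genes. These 3 roles had the same signs, as had the eIF2 complex, the eIF4E inhibitors, eIF5A with eIF6 and the start codon genes. The other roles did not: the 3 eIF2 kinases had 0.07, 0.07, -0.48 and 1.04, the 4 eIF2B genes -0.06, -0.69, -0.0034 and 0.90, and Eef2kmt, the 1 modifier that passed, -0.03, 0.04, 0.22 and -0.23. The median of the T cell markers had the signs of the elongation, eIF3 and cap-binding genes, with 0.68, -0.29, -1.37 and 0.99. After TMM scaling it was 0.56, -0.05, -1.23 and 0.74, so that replicate 2 lay near the gene means. The T cell marker with 577 counts in replicate 2 was highest there by CPM and lowest in replicate 4. Before scaling, the 2 B cell markers with enough counts, Cd79a and Cd22, had 0.82, 0.92, 0.10 and -1.84. The 2 myeloid markers with enough counts, Csf1r and Cd68, had 0.27, 0.08, 0.99 and -1.35. Csf1r varied 1.14-fold between libraries, so these values rest mostly on Cd68, with 16, 11, 33 and 0 counts. The part of these cell types in the result was not tested.

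The ratio of the highest to the lowest library, in CPM, was then set against the presence of an opposite exon. Among the 37 genes without an opposite exon, the highest library was less than 2-fold above the lowest in 1, Eif1ad (1.56-fold), against 8.2% of protein-coding autosomal genes without one. Among the 14 with an opposite exon, 7 stayed under 2-fold, against 43.3% of such protein-coding autosomal genes, a share close to that background. They were Eif2ak1 (1.12), Eif2d (1.13), Eif2b4 (1.30), Eef2kmt (1.37), Eif5b (1.60), Eif4a2 (1.75) and Eif3j1 (1.84). The median was 4.26-fold without and 2.75-fold with an opposite exon, against 5.83-fold and 2.31-fold for protein-coding autosomal genes. The widest ratios were those of Eif1a (40.8) and Eif4e (30.6), with lowest counts of 2 and 3, followed by Eif2b3 (14.6, with a lowest count of 2) and Eif3m (10.8). The other genes among the 6 of widest SD of log2 CPM were Eif4a1 (7.83-fold), Eif5 (7.74) and Eif3i (7.03).

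The arrangement of the genes was examined after these values were seen. Of the 6 genes that meet another gene at the 3' end, 6 stayed under 2-fold, against 53.3% of protein-coding autosomal genes so placed. Of the 7 that share 5' ends, 2 did (Eif2b4 and Eef2kmt), against 38.9%. Where the opposite gene lies within the factor gene it was 1 of 3 (Eif2ak1), against 30.8%, and Eif3m, which lies within Ccdc73, was not under 2-fold, against 54.9%. A gene with several partners counts in each arrangement. TMM scaling gave the same counts of 1, 7, 6, 2, 1 and 0. The 6 genes at the 3' end had mean counts of 149 to 1289.8, and the part of depth in this pattern was not tested.

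**Figure D4:**
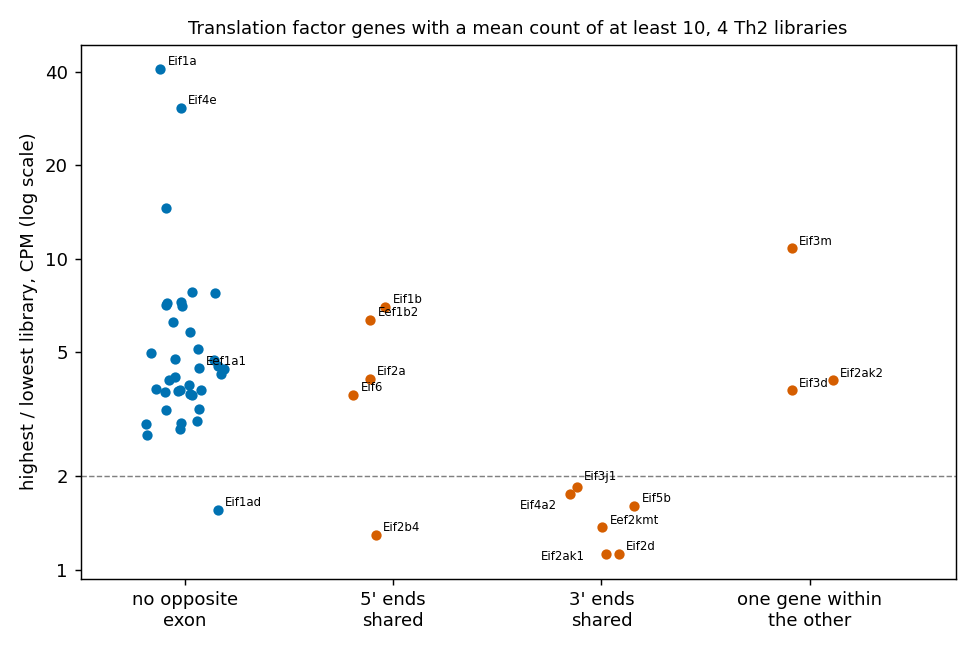
Ratio of the highest to the lowest library in CPM (vertical log axis) for the 51 genes whose counts averaged 10 or more, by the arrangement of the opposite exon, with points spread sideways for legibility and genes with several partners drawn once, at the 3' end where they have one. The dashed line is 2-fold: the 6 genes with shared 3' ends are under it, at 1.12 to 1.84, and 36 of the 37 genes without an opposite exon are above it.

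The spread between libraries was larger than counting error for most of the genes. A chi-square test of counts against TMM-scaled library sizes, with Benjamini-Hochberg adjustment over 7752 genes, called 49 of the 51 genes, against 88.2% of all genes tested. The exceptions were Eif1ad (adjusted p = 0.548) and Eif6 (adjusted p = 0.0665). The quasi-likelihood test of edgeR, run for 1 library against the rest at a time, called 0 of the 51 genes in any library after Benjamini-Hochberg adjustment, against 0.0%, 0.0129%, 0.0387% and 0.0% of all genes for replicates 1 to 4. DESeq2 gave the same for the 51 genes after adjustment. The smallest edgeR p was that of Eif4g2 in replicate 4 (log2 fold change 1.74, unadjusted p = 0.00353, lowest adjusted p in that library 0.565). The common biological coefficient of variation was 0.575, and on simulated counts this edgeR test recovered 0% of changes of 4-fold and 82.5% of changes of 16-fold, so it can miss most differences of the size seen here.

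Genes that work with these factors but are named otherwise were taken from a list of 36 regulators and termination factors. All had counts, 26 had a mean count of at least 10, 22 of these were called for spread beyond Poisson (88.2% of all genes tested were), and 0 were called by edgeR in any library. The median of their mean TPM was 6.54. Tpt1, a growth-related binder of eEF1B, had 890, 233, 203 and 902 counts (236 ± 191 TPM), and Pabpc1, the poly(A)-binding protein that joins eIF4G, had 545, 173, 157 and 767 (73.6 ± 65.8 TPM). Both were high in replicates 1 and 4. Atf4, a transcription factor translated when eIF2 is phosphorylated, had 183, 78, 45 and 112 counts (57.8 ± 32.4 TPM). Its target Ddit3, which has exons opposite a pair of genes, had 379, 315, 290 and 178 (156 ± 27.6 TPM) and varied less than 2-fold in TPM. Over the 26 genes replicate 4 was highest in 17 (43.3% of all genes), and the lowest was replicate 2 in 11 (30.1%) and replicate 3 in 11 (32.8%).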

How the data were processed

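Gene-level RNA-seq counts of 4 Th2 libraries were used. Per the file headers, the authors made the deposited counts with featureCounts v1.4.6-p4 from paired fragments over exons of GENCODE M13 on mm10, with the strand option set to 1. The headers set neither the option for multiply aligned fragments nor that for fragments shared by several genes. The assay is labelled total RNA-seq, but the linked library protocol is named for poly(A)+ RNA.

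From these counts, CPM, TPM (with the exon length in the files) and counts per kb were computed. Symbols came from GENCODE M21 by identifier (50376 of 50600 matched), and shared exon bases from bedtools 2.31.1. Coordinates are those of the count files. The genes and the gene lists were chosen with earlier results of these data known.

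Genes were tested where the mean count was at least 10. edgeR 4.0.16 (R 4.3.3), with TMM scaling, gave the test of each library against the other 3, and DESeq2 1.42.0 was an alternative. Pairs of genes were tested by an exact two-sided sign-flip permutation over libraries (smallest p 0.125), with a pseudocount of 1. Adjusted p-values are Benjamini-Hochberg, at 0.05. Shares have Wilson intervals at 95%. Alternatives were another pseudocount, count minimum, size factor, length scaling, shared length and each library left out. On simulated data of 7752 genes, the chi-square test recovered 69% of 2-fold and 100% of 4-fold changes. It made 8 false calls in each of these runs and 0 calls with no change.

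Named genes were, per role, the highest pair and the lowest gene by mean TPM, the 12 pairs with the most counts in the opposite gene and pairs with the denser translation factor, the 6 of widest log2 CPM spread, genes called in 1 library against 3 and the related copies. Further genes were named after their values were seen. Some marker genes are not reported here.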

Additional observations from a re-analysis of the deposited data

Results flagged for a closer look

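The translation factors and their opposite-strand genes, leaving out the 3 with 0 counts in every library, made 83 genes, and each was searched for a library whose gap to its nearest neighbour exceeded Dixon's 95% limit, as a part of the range over the 4 libraries. Chance gives such a gap in about 1 of 20 groups, and 5 genes had one. Replicate 4 stood apart in 4 of them: Eef1akmt1 at 10.3 TPM (0, 1, 0 and 7 counts), Eef2k at 1.17 TPM (0, 1, 0 and 7 counts), Eif4e3 at 2.45 TPM (0, 0, 0 and 5 counts) and Eif2b1 at 9.56 TPM (7, 7, 8 and 20 counts). Eif4e3 shares 373 bases of exon with Gm20696 on the same strand. In Gm16098, opposite Eif6, replicate 2 stood apart at 4.76 TPM (0, 5, 0 and 0 counts). None of the 5 genes had more than 20 counts in any library.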

How the results depend on the processing

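The median level of the 65 genes, 15.1 TPM, was 32.5 in CPM, which is another unit, and 118 TPM when the denominator held only genes without an opposite exon. It ranged from 10.3 to 18.5 TPM when each library was left out in turn. Of the pair results, Alg1 over Eef2kmt ranged from -0.11 to 0.03 with a library left out and changed sign without replicate 1 (0.0264, from -0.05), and n-R5s29 over Eif2ak2 changed sign when counts replaced counts per kb (-1.06, from 3.88). The median of log2(TPM + 1), 3.62, ranged from 3.27 to 3.92 with a library left out. With each library left out in turn, Gm17638 over Eif3d ranged from 5.09 to 5.81, the number of opposite genes denser in every library from 6 to 7, and the number of genes with spread beyond Poisson from 45 to 50. Under the other settings these were at most 6.67 (counts in place of counts per kb), as low as 5 (at least 100 shared bases) and as high as 56 (no count minimum). The 45 to 50 were of 51 genes tested, where 75.2% to 81.1% of all genes were called. The 56 were of 62 genes tested, where 70.4% of all 16612 genes were called. The call of 0 genes in tests of 1 library against 3 was the same with DESeq2, with median-of-ratios factors and without a count minimum. Over all results and settings, 230 values kept their direction and side of the threshold or moved by less than the spread. Leaving out 1 of 4 libraries cannot move a mean by as much as its SD over the libraries. For the mean levels of single genes and the median of log2(TPM + 1), this part of the check could not fail. Likewise, a mean log2 ratio with the same sign in all 4 libraries cannot change direction when 1 is left out. The number of opposite genes denser in every library can then only stay or rise, as long as each pair keeps its minimum of counts. The 230 values include such fixed outcomes, which are no evidence of stability. TMM scaling of the deviations and of the highest to lowest ratios was added after the data were seen. No paired analysis was possible because all 4 libraries belong to 1 group. Counting depth limits the genes with a mean count under 10, and each of 17 genes had a mean TPM more than 1.5 times lower without replicate 4, as Eif3j2 had without replicate 1.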

Other observations

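Sex-linked relatives lie outside the autosomal rule. Eif2s3y, the Y-linked gene for the gamma subunit of eIF2, had 0 counts in replicates 1 and 2, 12 in replicate 3 and 75 in replicate 4. Its X-linked counterpart Eif2s3x had 9, 3, 7 and 4 counts (1.43 ± 0.636 TPM, SD, n = 4). Eif1ax, the X-linked relative of Eif1a, had 72, 27, 13 and 104 counts (10.6 ± 10.03 TPM), with replicates 1 and 4 again above 2 and 3. A count of 0 allows up to 1.68 CPM in replicate 1 and 1.62 CPM in replicate 2. The labels give the sex as not collected, and whether the libraries differ in sex was not tested.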
